A study of Mus musculus with 8 samples.

Results

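The EGFP-low cells of Lewis lung carcinoma (LLC) tumours were compared with the EGFP-low cells of colon26 tumours. The members were the 2 arrays titled LLC-PSF1P-EGFP_low and the 2 titled colon26-PSF1P-EGFP_low, 4 of the 8 arrays of the series, and each LLC array was matched to the colon26 array of the same number. The study used EGFP driven by the promoter of PSF1 (the protein of Gins1, a subunit of the GINS complex of the replication fork) to sort tumour cells by promoter activity, and asked whether the high cells resemble embryonic stem cells. LLC low was sorted from subcutaneous tumours 4 weeks after inoculation and colon26 low from subcutaneous tumours 2 weeks after inoculation, so the line and the weeks of growth cannot be told apart. All 4 groups of the series carried the same stable reporter, and the EGFP-high cells of the same tumours served here for comparison. LLC and colon26 are established mouse lines derived from a lung and a colon carcinoma of different inbred strains, so strain and line cannot be told apart either. The arrays are titled as biological replicates. The labels do not say whether a line was 1 clone, which mice were hosts, whether the arrays numbered 1 and 2 came from separate tumours, or whether host cells were removed before the sort. Because arrays were matched by number, the main p-values measure how far the line difference varied between the 2 numbers, with variances moderated over genes. They do not measure the spread between the arrays of a line or between tumours. The variation they do measure may be technical. The colon26 arrays carry LLC in their free-text description and colon26 in their title, source and cell line, and were taken as colon26.

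A subcutaneous tumour is a mixture of cancer cells and host cells. Macrophages and other myeloid cells clear debris and secrete cytokines, fibroblasts lay down collagen and proteoglycans, and endothelial cells line the vessels that feed the tumour. Cancer lines also keep traces of their origin in keratins, cadherins and Hox genes, which encode the transcription factors that record position along the body axis. A sort on a reporter carried by the cancer cells leaves cells without reporter activity in the low gate. In such sorted bulk samples fewer cells of a type and less RNA per cell cannot be told apart.

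Log2 signals of 18193 named genes were measured, each by the probe set with the highest mean, and 11661 genes with a log2 signal above 5 on at least 2 of the 4 low arrays were tested. Of these, 321 were above 5 in LLC low alone and 804 in colon26 low alone. Such genes passed through the line in which they were high, so counts and medians over the members of a list that passed are descriptions. The arrays numbered 1 stood apart from those numbered 2 in both lines. For 4 control transcripts the 3′ signal exceeded the 5′ signal by a median log2 difference of 2.49 in LLC low and 2.60 in colon26 low for number 1, and 0.13 and 0.23 for number 2. The lower quartile of all probe sets was 3.71 and 3.63 on the LLC low arrays and 4.08 and 4.12 on the colon26 low arrays, so the floor of the LLC arrays lay lower. The 6532 genes not tested had a median LLC minus colon26 difference of −0.50 on the log2 scale, against −0.05 for those tested. The part of this floor in small differences toward colon26 was not tested. In the following, pairs of log2 signals give number 1 before number 2, a difference is LLC low minus colon26 low on the log2 scale, and "higher" is written of genes with an adjusted p under 0.05 in limma with the number as a block.

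The low cells of the lines differed at a large share of the genes. Of the 11661 genes tested, 1809 (15.5%) were higher in LLC low and 1973 (16.9%) were higher in colon26 low, 32.4% in either direction. These shares are the background for the counts of list members given below. Both LLC arrays lay above both colon26 arrays for 2730 genes (23.4%) and below them for 3283 (28.2%). More than a 2-fold difference was seen for 1373 of the genes higher in LLC low and 1456 of those higher in colon26 low, and more than 16-fold for 55 and 135. Without the block, limma called 279 and 379 genes, and all of these were also among the calls with the block. With each array centred on its median the split was 2472 higher in LLC low and 1470 higher in colon26 low, 62.7% of the calls toward LLC in place of 47.8%, and the median difference of all genes moved from −0.05 to 0.14. That fit also gave all genes 1 common variance (infinite prior degrees of freedom, against 7.23 in the main fit). Calls gained or lost with centring thus mix a shift of the values with a change of variance. A median SE of 0.26 on the log2 scale, from 2 arrays a group, limits what could be called. No rank or permutation test of 2 arrays against 2 can give a two-sided exact p below 0.333.

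The largest differences toward colon26 low were led by Fst, which encodes the activin antagonist follistatin, with log2 signals of 4.03 and 3.85 in LLC low and 13.11 and 12.88 in colon26 low. The arrays of the lines lay far apart, and the difference was −9.05 (SE 0.25, limma adjusted p = 1.56e-06). Rpl39l, a paralogue of a ribosomal protein gene, differed by −8.76, and Baiap2l1, which encodes an actin and membrane adaptor, by −8.56. Akr1c18, an enzyme of progesterone breakdown, differed by −8.02, and Ifi202b, an interferon-inducible gene of the p200 family, by −8.31. Mgp, the matrix Gla protein that restrains calcification, differed by −7.35. Rarres1 (−7.58), the keratinocyte growth factor gene Fgf7 (−7.28), the stromelysin gene Mmp10 (−7.20), the tenascin C gene Tnc (−7.17) and the transcription factor gene Sox4 (−7.10) were also among the 12 largest, with Krt20.

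In LLC low the largest differences were led by Bnc1, which encodes the zinc finger factor basonuclin 1, with log2 signals of 11.42 and 11.27 in LLC low and 4.16 and 3.50 in colon26 low. The colon26 arrays were near the floor and the LLC arrays high, a difference of 7.52 (SE 0.26, limma adjusted p = 2.11e-06). The predicted gene Gm364 differed by 7.27, the splicing regulator gene Mbnl3 by 6.93 and Nptx1, which encodes a secreted pentraxin of neurons, by 6.53. Nxf3 (6.31), a member of the RNA export factor family, Ank3 (5.83), which encodes the membrane skeleton adaptor ankyrin G, Ankrd44 (5.38), the monocarboxylate transporter partner embigin (Emb, 5.33) and the adhesion gene Nectin3 (5.32) were also among the 12 largest. Egln3, Krt8 and Hoxd10 completed them. The sizes for Ank3 and Ankrd44 depended on the probe set. With the mean of all probe sets of the gene the differences were 3.34 and 1.25. Each of these 24 genes had both arrays of one line above both arrays of the other, and each was also called without the block. Gins1 itself was 7.23 and 7.14 in LLC low and 7.56 and 6.97 in colon26 low, and these values overlapped. Its difference of −0.08 (SE 0.26, limma adjusted p = 0.837) did not pass the test.

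**Figure D1:**
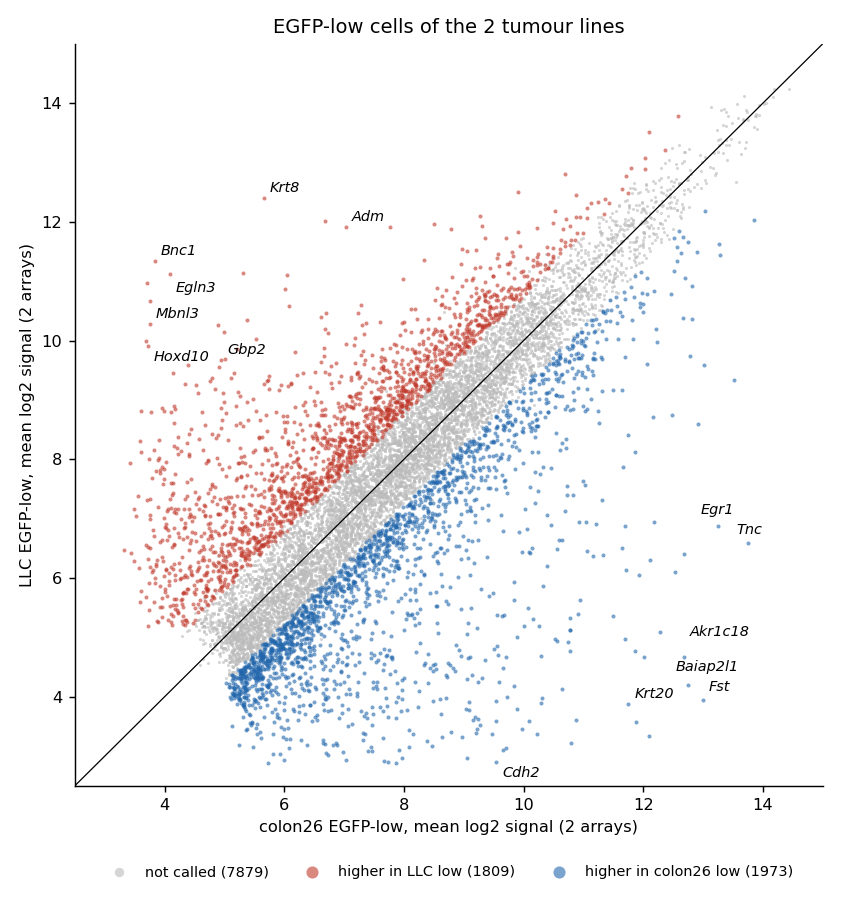
Mean log2 signal in colon26 EGFP-low cells (horizontal axis, 2 arrays) against LLC EGFP-low cells (vertical axis, 2 arrays) for the 11661 genes tested, with the line of equality in black. Red points are the 1809 genes higher in LLC low, blue points the 1973 higher in colon26 low and grey points the genes not called; Fst and Krt8 lie at opposite corners.

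Keratins, cadherins and Hox genes were among those that differed between the low cells of the lines. Krt8, which with Krt18 forms the keratin filaments of simple epithelia, had log2 signals of 12.44 and 12.36 in LLC low and 5.95 and 5.37 in colon26 low. The groups were separate on every array, and the difference was 6.74 (SE 0.26, limma adjusted p = 2.5e-06), a 107-fold difference. Krt18 was 8.43 and 8.57 against 3.84 and 5.05, a difference of 4.06 (SE 0.31, limma adjusted p = 3.82e-05). The desmosome gene Pkp2 was 21.4-fold higher and the tight junction gene Ocln 3.83-fold higher in LLC low. Of 20 epithelial junction and keratin genes 10 passed the filter, of which these 4 were higher in LLC low and 1, the epithelial transcription factor gene Grhl2, was higher in colon26 low (difference −0.79), a call lost with median centring (limma adjusted p = 0.154). The shares over all genes tested were 15.5% toward LLC and 16.9% toward colon26, and Ocln and Pkp2 passed through LLC low alone. The median of the 10 was 0.47, and over all 20, including those under the filter, it was −0.46. Without the block Krt8, Krt18 and Pkp2 were called and Ocln was not (limma adjusted p = 0.0904). Cdh1, the E-cadherin gene, lay at 3.03 and 2.83 in LLC low and 3.88 and 3.26 in colon26 low, under the filter in both lines. Epcam was 6.87 and 7.18 against 6.35 and 6.43, and its difference of 0.63 did not pass the test (limma adjusted p = 0.0882).

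The markers of the organs the lines are named for were mostly near the floor. Of 15 intestinal epithelium genes 4 passed the filter and 1 was higher in colon26 low, the gut keratin gene Krt20, with log2 signals of 3.70 and 4.06 in LLC low and 11.60 and 11.91 in colon26 low. Its difference was −7.87 (SE 0.25, limma adjusted p = 1.56e-06), a 234-fold difference. The other defining genes did not separate colon26: Cdx2, an intestinal homeobox gene, was 5.57 and 5.09 in LLC low and 5.42 and 5.49 in colon26 low, and Vil1 (villin), Cdh17 and Muc2 (an intestinal mucin) lay under the filter. Of 12 lung epithelium genes 4 passed the filter. Hopx, a homeodomain-only factor of alveolar type I cells and of other tissues, was 9.73 and 10.45 in LLC low and 8.01 and 7.86 in colon26 low, a difference of 2.16 (SE 0.29, limma adjusted p = 0.000934). Napsa, a protease of alveolar cells, was higher in colon26 low (−1.05), at 5.80 and 6.03 against 4.94 and 4.79, a call lost without the block (limma adjusted p = 0.152). The lung factor gene Nkx2-1 and the surfactant gene Sftpc lay under the filter in both lines.

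Some genes of mesenchymal transition were higher in colon26 low, led by a cadherin gene. Cdh2, the N-cadherin gene, was 2.90 on both LLC low arrays and 9.97 and 9.10 in colon26 low, a difference of −6.64 (limma adjusted p = 3.73e-06). Of 15 genes of mesenchymal transition 14 passed the filter, 7 were higher in colon26 low and 0 in LLC low, beside 16.9% and 15.5% of all genes tested, and 7 were not called. The median was −0.53. The zinc finger repressor Snai2 differed by −2.65 and Twist2 by −1.95. Without the block 1 of the 7 was called, Cdh2.

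Hox genes were called in both directions. Of 39 Hox genes 33 were on the array and 18 passed the filter, of which 7 were higher in LLC low and 6 in colon26 low. Over all genes tested 15.5% were higher in LLC low and 16.9% in colon26 low. Those higher in LLC low were Hoxa7, Hoxa9, Hoxa10, Hoxd3, Hoxd8, Hoxd9 and Hoxd10, all of the A and D clusters. Hoxd10 was 9.79 and 10.02 in LLC low and 3.92 and 3.52 in colon26 low, and Hoxd9 was 7.68 and 10.25 against 5.54 and 5.22. The LLC arrays were above the colon26 arrays for both, with differences of 6.19 (SE 0.27, limma adjusted p = 3.73e-06) and 3.59 (SE 0.56, limma adjusted p = 0.00211). Those higher in colon26 low were Hoxa5, Hoxb4, Hoxb6, Hoxc4, Hoxc5 and Hoxc8, of which 5 belong to the B and C clusters. Of these, Hoxb4, Hoxb6, Hoxc5 and Hoxc8 passed the filter through colon26 low alone, as Hoxd3 and Hoxd10 did through LLC low alone. Of the 12 Hox genes above 5 in both lines 5 were higher in LLC low and 2 in colon26 low. Hoxb6 was 3.26 and 3.37 in LLC low and 6.12 and 5.84 in colon26 low, a difference of −2.67. Without the block Hoxd10 and Hoxb6 were called and the other 11 were not.

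Of 4 sex chromosome genes that passed the filter 3, all of the Y chromosome, were higher in LLC low. These 3 passed through LLC low alone, and only Xist was above 5 in both lines. Eif2s3y, a translation factor gene of the Y chromosome, was 8.0 and 7.88 in LLC low and 3.33 and 3.51 in colon26 low, a difference of 4.52 (SE 0.25, limma adjusted p = 8.66e-06). Kdm5d and Uty, both Y-linked histone demethylase genes, differed by 2.79 and 1.66, and of the 3 Uty lost its call without the block (limma adjusted p = 0.0528). Xist, the RNA that silences an X chromosome, was 7.14 and 6.18 in LLC low and 10.09 and 7.39 in colon26 low. All colon26 values were above the LLC values, with a difference of −2.08 (SE 0.39, limma adjusted p = 0.00513) that was not called without the block (limma adjusted p = 0.303).

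Imprinted genes also differed between the lines. Peg3, an imprinted zinc finger gene, was 9.48 and 8.90 in LLC low and 5.54 and 4.13 in colon26 low, a difference of 4.35, and the imprinted factor gene Plagl1 differed by 3.60. Igf2r, the receptor that takes up Igf2 for degradation, was higher in LLC low by 1.63, and the imprinted noncoding RNA gene Meg3 was higher in colon26 low (−1.55). These 4 were the called members of 8 imprinted genes that passed the filter, beside 32.4% of all genes tested that were called in either direction. Plagl1 was 8.15 and 10.49 against 6.95 and 4.48, a difference of 1.20 for number 1 and 6.01 for number 2, and its call was lost with quantile normalization (limma adjusted p = 0.0664). Without the block Peg3 was called, and Plagl1, Igf2r and Meg3 were not (limma adjusted p = 0.161, 0.0927 and 0.12).

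**Figure D2:**
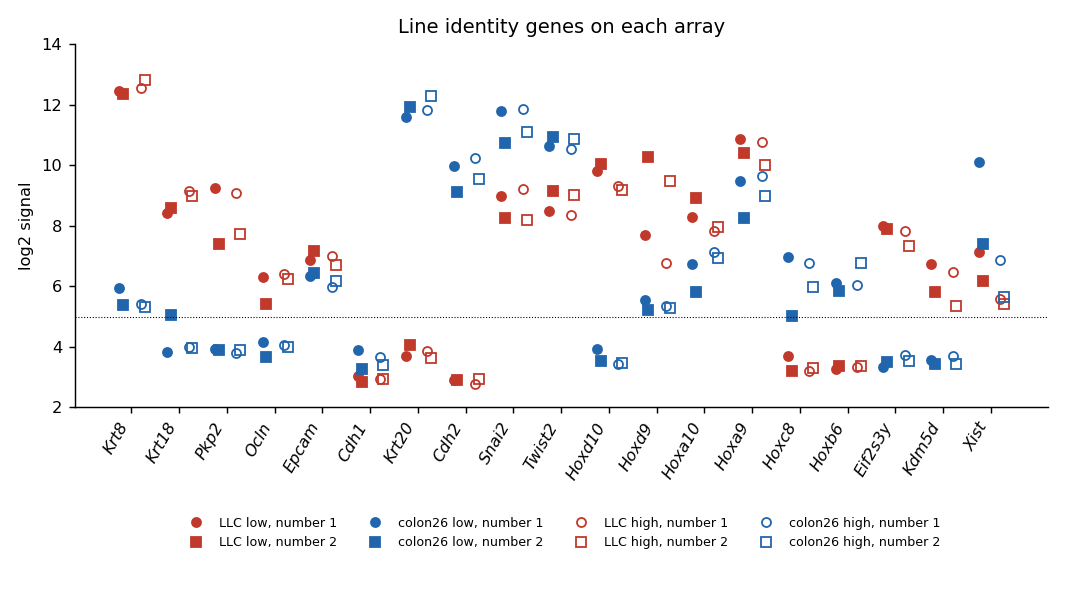
Log2 signal of line identity genes (vertical axis) on each of the 8 arrays, red for LLC and blue for colon26, filled for EGFP-low and open for EGFP-high, with circles for number 1 and squares for number 2; the dotted line is the filter of 5. Krt8, Hoxd10 and Eif2s3y stand high in LLC and Krt20 and Cdh2 high in colon26, with the low and high cells of a line at similar levels.

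Most macrophage genes that passed the filter were higher in colon26 low. Of 20 macrophage genes 17 passed, 2 of them through colon26 low alone, 13 were higher in colon26 low and 0 in LLC low, with a median of −1.57. Over all 20 the median was −1.43. Over all genes tested 16.9% were higher in colon26 low, and the median was −0.05. The mean log2 level over the list was 6.03 and 6.10 in LLC low and 7.64 and 7.29 in colon26 low. Cd163, the haemoglobin scavenger receptor of tissue macrophages, was 4.17 and 4.32 in LLC low and 9.06 and 7.31 in colon26 low. The LLC arrays were near the floor and the colon26 arrays well above, with a difference of −3.94 (SE 0.41, limma adjusted p = 0.00024), 15.4-fold. Mrc1, the mannose receptor, was 7.89 and 7.69 against 11.20 and 9.18, a difference of −2.40 (SE 0.40, limma adjusted p = 0.00304). Csf1r, the receptor through which macrophages receive their survival signal, was 8.30 and 7.77 against 10.28 and 8.94, a difference of −1.57 (SE 0.28, limma adjusted p = 0.00426). Colon26 low was the higher line on every array for these 3 genes, of which Mrc1 and Csf1r were not called without the block (limma adjusted p = 0.15 and 0.195).

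The other macrophage genes gave a range of differences. The endotoxin co-receptor gene Cd14 differed by −2.93, the Fc receptor gene Fcgr3 by −1.97, Ms4a7 by −1.85, the lysozyme gene Lyz2 by −1.70, and the complement C1q chains C1qa and C1qc by −1.63 and −1.62. Aif1 (−1.46), the adaptor gene Tyrobp (−1.4), the perforin-like gene Mpeg1 (−1.39) and the lysosomal gene Cd68 (−1.27) were also higher in colon26 low. Lyz1 and Lyz2 are near-identical copies, so their signals are uncertain. Adgre1, which encodes the macrophage antigen F4/80, was 6.11 and 5.81 in LLC low and 6.57 and 6.11 in colon26 low. The values of the 2 lines met, and the difference of −0.38 did not pass the test (limma adjusted p = 0.27). Mertk (−0.20), Msr1 (−1.02) and C1qb (0.17) also missed the threshold. Itgam, Fcgr1 and Marco lay under the filter. Without the block 3 macrophage genes were called, Cd163, Cd14 and Fcgr3, all higher in colon26 low.

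Genes of macrophage activation did not all go one way. Of 9 genes of alternative activation that passed the filter 6 were higher in colon26 low, and 1, Arg1, which encodes an arginine-degrading enzyme, was higher in LLC low. The shares over all genes tested were 16.9% and 15.5%. Cd163, Ccl17 and Lyve1 passed through colon26 low alone and Arg1 through LLC low alone. Of the 5 genes above 5 in both lines 3 were higher in colon26 low and 0 in LLC low. Arg1 was 6.62 and 6.70 in LLC low and 4.73 and 4.72 in colon26 low. All LLC values were above the colon26 values, a difference of 1.93 (SE 0.25, limma adjusted p = 0.000736) that was also called without the block. The chemokine gene Ccl17 (−2.14) and the scavenger receptor gene Stab1 (−1.43) were among the 6. Of 9 genes of inflammatory activation 5 were higher in colon26 low, among them Il6 and Il1b, and 2 in LLC low, Cxcl9 (1.49) and the co-stimulatory receptor gene Cd40 (1.47). Cxcl9 passed the filter through LLC low alone. Several of these genes are also made by cells other than macrophages.

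Other leukocyte lists held fewer measurable genes, and their counts stand beside 16.9% of all genes tested that were higher in colon26 low. S100a8, a calcium-binding alarmin of neutrophils, was 6.93 and 6.96 in LLC low and 10.85 and 10.99 in colon26 low, a difference of −3.97 (SE 0.25, limma adjusted p = 1.51e-05). Its partner S100a9 was 5.98 and 6.61 against 5.63 and 4.88, a difference of 1.04 in the other direction (limma adjusted p = 0.0502). Of 14 neutrophil genes 7 passed the filter and 4 were higher in colon26 low, and the defining receptor gene Csf3r lay under the filter in both lines. Of 10 inflammatory monocyte genes 6 passed and 4 were higher in colon26 low, led by the orphan nuclear receptor gene Nr4a1 (−5.14), which is also an immediate early gene of many cells. Of 16 T and NK cell genes 4 passed and 2 were higher in colon26 low, Cd8a (−1.36) and Cd4 (−0.97). Both calls were lost without the block (limma adjusted p = 0.123 and 0.183), and that of Cd4 also with median centring (limma adjusted p = 0.0518). Cd3e, which encodes a chain of the T cell receptor complex, was 5.17 and 5.50 against 5.68 and 5.76 and did not pass (limma adjusted p = 0.264). The defining B cell genes Cd79a and Ms4a1, the erythroid enzyme gene Alas2 and the muscle gene Mylpf lay under the filter. The macrophage, monocyte, neutrophil, dendritic, T and NK, B and mast cell lists had 0 members higher in LLC low, although with median centring 2 neutrophil genes and 1 dendritic cell gene were. The dendritic and the T and NK cell lists had 4 genes tested each, and the B and mast cell lists 2 each. With 15.5% of all genes tested higher in LLC low, a count of 0 in lists this small is uninformative.

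Fibroblast genes split between the lines. All 15 passed the filter, 8 were higher in colon26 low and 3 in LLC low, with a median of −1.71. The shares over all genes tested were 16.9% and 15.5%. The mean log2 level over the list was 8.69 and 8.94 in LLC low and 10.23 and 9.56 in colon26 low. Col1a2, a chain of type I collagen, was 9.90 and 8.76 in LLC low and 13.65 and 13.40 in colon26 low. Both colon26 arrays were above both LLC arrays, with a difference of −4.20 (SE 0.29, limma adjusted p = 2.4e-05), 18.3-fold. Col1a1, the partner chain, differed by −3.42, the microfibril gene Mfap5 by −4.85, the elastin and collagen crosslinking gene Loxl1 by −4.42 and Pi16, a gene of adventitial fibroblasts, by −2.53. Thy1 (−1.91), the protease gene Fap (−1.74) and the receptor gene Pdgfrb (−1.71) completed those higher in colon26 low.

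The 3 fibroblast genes higher in LLC low are all of the extracellular matrix. Dpt, which encodes dermatopontin of the dermis, was 11.37 and 12.48 in LLC low and 8.61 and 6.91 in colon26 low, a difference of 4.16 (SE 0.55, limma adjusted p = 0.000839), 17.9-fold. Lum, the collagen-binding proteoglycan lumican, was 11.81 and 13.21 against 10.89 and 8.92, a difference of 2.60 (SE 0.64, limma adjusted p = 0.0157). Col6a3, a chain of type VI collagen, differed by 2.04 (SE 0.45, limma adjusted p = 0.0105). The LLC arrays were above the colon26 arrays for all 3. The defining fibroblast genes Pdgfra and Dcn were strong in both lines. Pdgfra, the receptor for platelet-derived growth factor, was 12.70 and 12.62 in LLC low and 12.47 and 11.94 in colon26 low, and the proteoglycan gene Dcn was 11.97 and 13.36 against 13.51 and 13.60. Neither passed the test, with differences of 0.45 (limma adjusted p = 0.215) and −0.89 (limma adjusted p = 0.0763). Col3a1 (0.38) and Postn (−0.09) also did not. Without the block 6 fibroblast genes were called toward colon26 and 1, Dpt, toward LLC.

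Matrix genes were also called in both directions. Of 20 collagen genes that passed the filter 7 were higher in colon26 low and 3 in LLC low, with a median of −0.35. Over all genes tested 16.9% were higher in colon26 low and 15.5% in LLC low. The collagen share toward LLC was close to that of all genes. Col4a5, a basement membrane collagen chain, was 2.97 and 2.79 in LLC low and 8.70 and 7.03 in colon26 low, a difference of −4.98. Col18a1, the source of endostatin, was 9.40 and 11.23 against 6.92 and 9.10, a difference of 2.31 (SE 0.26, limma adjusted p = 0.000322). The higher colon26 array of Col18a1 was close to the lower LLC array, and the gene was not called without the block. Of 18 small proteoglycan and matricellular genes 10 were higher in colon26 low and 3 in LLC low, with a median of −1.34. Tnc, a matrix glycoprotein of wounds and tumour stroma, was 6.92 and 6.26 in LLC low and 13.66 and 13.85 in colon26 low, a 144-fold difference. The thrombospondin genes Thbs1 and Thbs2 differed by −5.31 and −3.75, and Ccn1 by −2.49. Aspn, the proteoglycan asporin, was 7.22 and 9.23 in LLC low and 4.44 and 3.85 in colon26 low, a difference of 4.08 (SE 0.52, limma adjusted p = 0.00067), and the versican gene Vcan differed by 1.48. Without the block 0 and 3 collagen genes and 1 and 4 proteoglycan and matricellular genes were called toward LLC and colon26 in limma, Aspn among them.

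Matrix proteases and their inhibitors were higher in colon26 low more often than in LLC low. Of 25 that passed the filter 11 were higher in colon26 low and 4 in LLC low, against backgrounds of 16.9% and 15.5%. Mmp8, Mmp13, Mmp23, Timp3 and Adamts12 passed through colon26 low alone. Of the 20 above 5 in both lines 7 were higher in colon26 low and 4 in LLC low. Mmp10 was 5.08 and 5.09 in LLC low and 12.37 and 12.20 in colon26 low, and Mmp13, a collagenase, was 3.49 and 3.83 against 9.21 and 9.17. The lines were separate on every array, with differences of −7.20 and −5.53. The gelatinase gene Mmp2 differed by −5.24, the inhibitor genes Timp3 by −4.63 and Timp1 by −3.46, and the stromelysin gene Mmp3 by −4.33. In LLC low the macrophage elastase gene Mmp12 was 6.91 and 9.12 against 5.21 and 4.55, a difference of 3.14 (SE 0.56, limma adjusted p = 0.00391). Mmp14, which encodes a membrane-anchored activator of Mmp2, was 11.16 and 12.60 in LLC low and 8.89 and 8.67 in colon26 low, a difference of 3.10 (SE 0.38, limma adjusted p = 0.000581). Adam8 (1.82) and Mmp11 (0.97) were the other members higher in LLC low. Without the block 6 were called toward colon26 and 1, Mmp14, toward LLC. Mmp12, with differences of 1.71 for number 1 and 4.57 for number 2, was not (limma adjusted p = 0.111).

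Endothelial genes had modest levels, and some were higher in colon26 low. Of 13 genes 10 passed the filter, 5 were higher in colon26 low, 1 in LLC low and 4 were not called. Cdh5, Emcn and Robo4 passed through colon26 low alone, and of the 7 genes above 5 in both lines 2 were higher in colon26 low and 1 in LLC low. The median over all 13 was −0.82. The mean log2 level over the list was 4.77 and 5.30 in LLC low and 5.54 and 5.98 in colon26 low. Cdh5, the cadherin of vessel walls, was 4.78 and 4.87 in LLC low and 6.80 and 6.13 in colon26 low, a difference of −1.65 (SE 0.28, limma adjusted p = 0.00323). Emcn, endomucin of capillaries and veins, was 3.73 and 4.06 against 5.52 and 5.61, a difference of −1.67 (SE 0.25, limma adjusted p = 0.00173). Both lines were separate on each array for these genes, with LLC near the floor. Cldn5 (−1.06), Robo4 (−0.90) and Esam (−0.77) were also higher in colon26 low. Pecam1, a defining endothelial gene, lay under the filter at 3.56 and 4.03 against 4.80 and 6.10, and the receptor gene Kdr did not pass (limma adjusted p = 0.0831). Eng, a co-receptor for transforming growth factor beta that other cells also make, was higher in LLC low by 0.95. Without the block 0 endothelial genes were called in limma, while after quantile normalization Cdh5, Emcn, Cldn5, Esam and Plvap were called toward colon26.

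Mural and fat cell genes were measured by few members. Of 8 pericyte and smooth muscle genes that passed the filter, Abcc9 (−1.58), Cspg4 (−1.39) and Tagln (−1.15) were higher in colon26 low and Acta2 in LLC low. The shares over all genes tested were 16.9% and 15.5%. Acta2, smooth muscle actin, was 8.30 and 7.38 in LLC low and 7.80 and 6.04 in colon26 low, values that overlapped, and with the mean of all its probe sets the difference turned to −0.12. The defining smooth muscle genes Myh11 and Cnn1 lay under the filter. Fabp4, a fatty acid binding protein of fat cells, macrophages and capillaries, was 6.17 and 5.07 in LLC low and 9.89 and 9.78 in colon26 low, a difference of −4.21 (SE 0.30, limma adjusted p = 2.74e-05), 18.5-fold. The defining fat cell genes Adipoq and Lep lay under the filter. Without the block Fabp4 was called and 0 of the pericyte and smooth muscle genes were in limma.

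**Figure D3:**
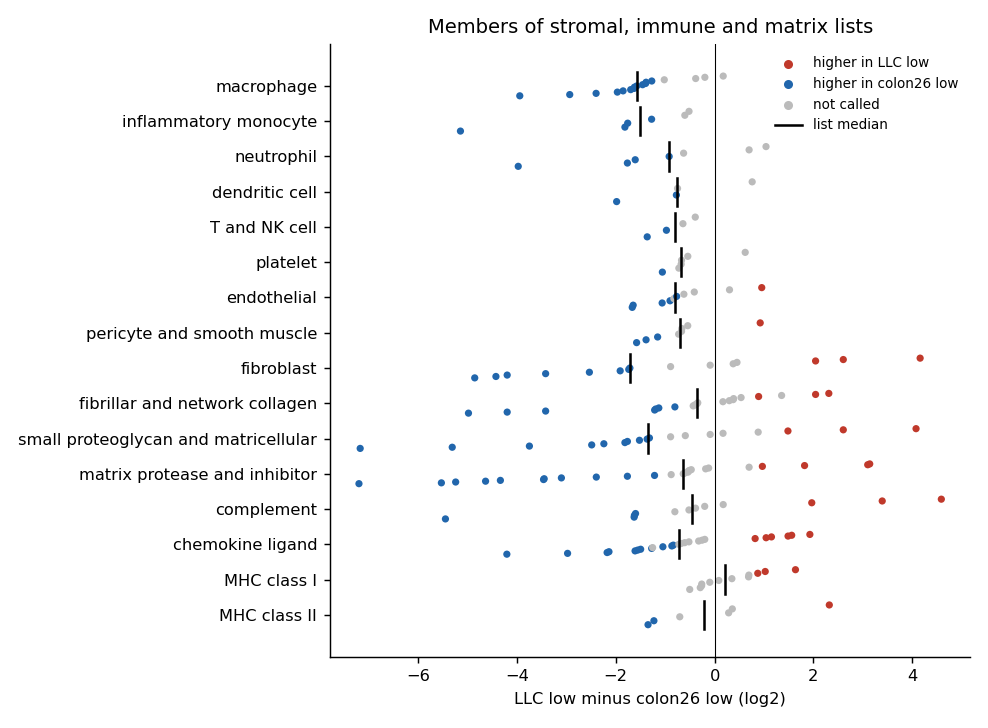
LLC low minus colon26 low on the log2 scale (horizontal axis) for each member that passed the filter, in 16 lists (vertical axis), red where higher in LLC low, blue where higher in colon26 low, grey where not called, with the list median as a black bar. The macrophage median lies at −1.57 with no red point, and the fibroblast list spans −4.85 to 4.16.

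Many genes of the response to low oxygen and of glycolysis were higher in LLC low. Of 22 genes 21 passed the filter, 12 were higher in LLC low and 1 in colon26 low, with a median of 1.06. Over all genes tested 15.5% were higher in LLC low. Egln3, a prolyl hydroxylase that marks hypoxia-inducible factor for destruction and is itself its target, was 11.25 and 11.003 in LLC low and 4.23 and 3.94 in colon26 low. The difference of 7.05 (SE 0.25, limma adjusted p = 2.11e-06) was 132-fold. Adm, the vessel-relaxing peptide adrenomedullin, was 12.23 and 11.58 against 7.01 and 7.04, a difference of 4.88 (SE 0.27, limma adjusted p = 8.69e-06). For both genes LLC was the higher line on every array. Among glycolytic enzymes and their gatekeepers Aldoc differed by 3.10, Pfkp by 3.07, the pyruvate dehydrogenase kinase gene Pdk1 by 2.86, the hexokinase gene Hk2 by 2.15, the glucose transporter gene Slc2a1 by 1.58 and Pfkl by 1.22. Ero1a (1.56), P4ha1 (1.18), the carbonic anhydrase gene Car9 (1.06) and Ndrg1 (0.89) were the others.

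Not every gene of the pathway took part. Vegfa, which drives vessel growth, was 8.51 and 8.0 in LLC low and 9.20 and 8.19 in colon26 low. Its values overlapped, and the difference of −0.44 did not pass the test (limma adjusted p = 0.232). The lactate dehydrogenase gene Ldha (−0.13), Pgam1 (0.06), Aldoa (0.08) and Bnip3 (0.54) also missed the threshold, and Eno2, a neuronal enolase, was higher in colon26 low (−1.61). Without the block Egln3, Adm, Aldoc and Pdk1 were called.

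Promoter windows are shown for 2 of the genes higher in LLC low because the response to low oxygen acts through a short site to which hypoxia-inducible factor binds, spelled ACGTG on 1 strand and CACGT on the other. The windows hold the 250 bases before the gene start on the strand of the gene, from RefSeq on GRCm38.p6, and capitals mark matches on either strand. They lie at chr12:54203875-54204124 on the minus strand for Egln3 and at chr6:82774455-82774704 on the minus strand for Hk2.
Egln3: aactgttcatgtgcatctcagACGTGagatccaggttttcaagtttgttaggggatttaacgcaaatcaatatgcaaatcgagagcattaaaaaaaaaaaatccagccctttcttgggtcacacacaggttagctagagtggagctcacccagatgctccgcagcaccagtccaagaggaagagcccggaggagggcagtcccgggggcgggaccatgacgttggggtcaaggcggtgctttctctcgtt
Hk2: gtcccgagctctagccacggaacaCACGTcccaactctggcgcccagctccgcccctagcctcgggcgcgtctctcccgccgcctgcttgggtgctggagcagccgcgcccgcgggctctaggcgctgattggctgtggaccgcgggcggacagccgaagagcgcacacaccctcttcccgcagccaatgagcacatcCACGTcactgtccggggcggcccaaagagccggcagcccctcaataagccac
The match in Egln3 began 229 bases before the start, and those in Hk2 began 226 and 52 bases before it. These genes were chosen because their windows hold a match, and those of Adm, Pdk1, Aldoc and Pfkp held none. In windows of 300 bases, which add the first 50 bases of the gene, these letters occurred on either strand in 19.6% of 32851 windows and in 29.3% of 9447 tested genes with a window. They occurred in 15 of the 20 hypoxia and glycolysis genes with a window, 7 of the 11 higher in LLC low and 8 of the 8 not called. A match is a description of the letters and not of a bound site.

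Interferon-stimulated genes split into those higher in LLC low and those higher in colon26 low. Of 30 genes 25 passed the filter, 13 were higher in LLC low and 6 in colon26 low, with a median of 0.82 (0.58 over the 27 on the array). The shares over all genes tested were 15.5% and 16.9%. Gbp2, a guanylate-binding GTPase that attacks vacuoles of pathogens, was 10.26 and 9.09 in LLC low and 6.23 and 3.66 in colon26 low, a difference of 4.73 (SE 0.35, limma adjusted p = 3.18e-05). Iigp1, an immunity-related GTPase, was 10.39 and 8.43 against 6.92 and 4.58, a difference of 3.66 (SE 0.26, limma adjusted p = 2.52e-05). Gbp3 was 8.79 and 7.45 against 6.29 and 4.66, a difference of 2.64 (SE 0.25, limma adjusted p = 0.000144). The arrays numbered 1 were higher than those numbered 2 in both lines for these 3 genes, and the LLC arrays lay above the colon26 arrays throughout. Their calls were lost without the block (limma adjusted p = 0.0648, 0.132 and 0.134). The antiviral genes Oasl2 (2.37), Oas1a (1.89), Rsad2 (1.87) and Bst2 (1.54), the chemokine gene Cxcl9 (1.49), the GTPase gene Igtp (1.32) and the RNA sensor gene Ddx58 (1.14) were also higher in LLC low. So were the genes of the transducing factors Stat2 (1.08) and Irf9 (0.90) and the Isg15-removing enzyme gene Usp18 (0.82).

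Those higher in colon26 low included the Ifit family, whose proteins bind foreign RNA. Ifit1 was 8.47 and 6.23 in LLC low and 9.53 and 8.19 in colon26 low, a difference of −1.51 (SE 0.29, limma adjusted p = 0.00599). The lower colon26 array was below the higher LLC array, so the groups overlapped, while colon26 was the higher line within each number. Ifit2 differed by −1.43 and Ifit3 by −1.08. The chemokine gene Cxcl10 (−1.50), the RNA sensor gene Ifih1 (−0.98) and Oasl1 (−0.97) were the other 3. Without the block 1 of the 19 called genes remained called, Oas1a. The list's members thus did not share 1 direction, although all are known to respond to interferon.

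Promoter windows are shown for 2 genes higher in LLC low and 2 higher in colon26 low because interferon acts on such genes through a site to which Stat and Irf factors bind. The core searched was TTTC, any 2 bases and TTTC, or GAAA, any 2 bases and GAAA on the other strand. The windows hold the 250 bases before the gene start, from RefSeq on GRCm38.p6, all on the plus strand, and capitals mark matches, which overlap each other in Gbp3. Gbp2 lies at chr3:142620413-142620662, Gbp3 at chr3:142559794-142560043, Ifit1 at chr19:34640639-34640888 and Ifit3 at chr19:34583279-34583528.
Gbp2: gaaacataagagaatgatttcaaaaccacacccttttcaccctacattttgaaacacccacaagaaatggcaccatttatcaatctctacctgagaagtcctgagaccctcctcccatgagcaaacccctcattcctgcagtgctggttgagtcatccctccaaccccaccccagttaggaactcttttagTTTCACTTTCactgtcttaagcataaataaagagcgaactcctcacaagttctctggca
Gbp3: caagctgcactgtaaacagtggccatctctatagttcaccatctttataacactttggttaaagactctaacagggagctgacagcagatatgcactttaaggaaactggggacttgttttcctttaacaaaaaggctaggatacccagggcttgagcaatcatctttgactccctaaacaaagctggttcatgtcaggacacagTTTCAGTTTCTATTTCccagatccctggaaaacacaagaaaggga
Ifit1: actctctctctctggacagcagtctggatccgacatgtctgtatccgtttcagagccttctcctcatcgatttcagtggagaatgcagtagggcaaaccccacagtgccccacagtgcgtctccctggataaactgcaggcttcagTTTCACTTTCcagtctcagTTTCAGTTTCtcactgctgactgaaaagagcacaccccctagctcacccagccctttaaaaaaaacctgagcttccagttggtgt
Ifit3: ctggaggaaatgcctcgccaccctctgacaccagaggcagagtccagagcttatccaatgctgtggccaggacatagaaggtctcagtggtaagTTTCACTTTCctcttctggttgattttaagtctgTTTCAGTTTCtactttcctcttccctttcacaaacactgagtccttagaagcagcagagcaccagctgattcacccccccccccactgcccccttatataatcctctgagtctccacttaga
These windows were chosen because they hold the letters. The windows of Oasl2, higher in LLC low, and of Ifit2, higher in colon26 low, held none, nor did that of another start of Gbp3. The matches began 59 bases before the start in Gbp2 and 104 and 85 bases before it in Ifit1. In windows of 300 bases the letters occurred in 3.44% of 32851 windows and in 3.55% of tested genes. They occurred in 8 of the 11 interferon-stimulated genes with a window that were higher in LLC low, in 4 of the 6 higher in colon26 low and in 1 of the 4 not called.

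**Figure D4:**
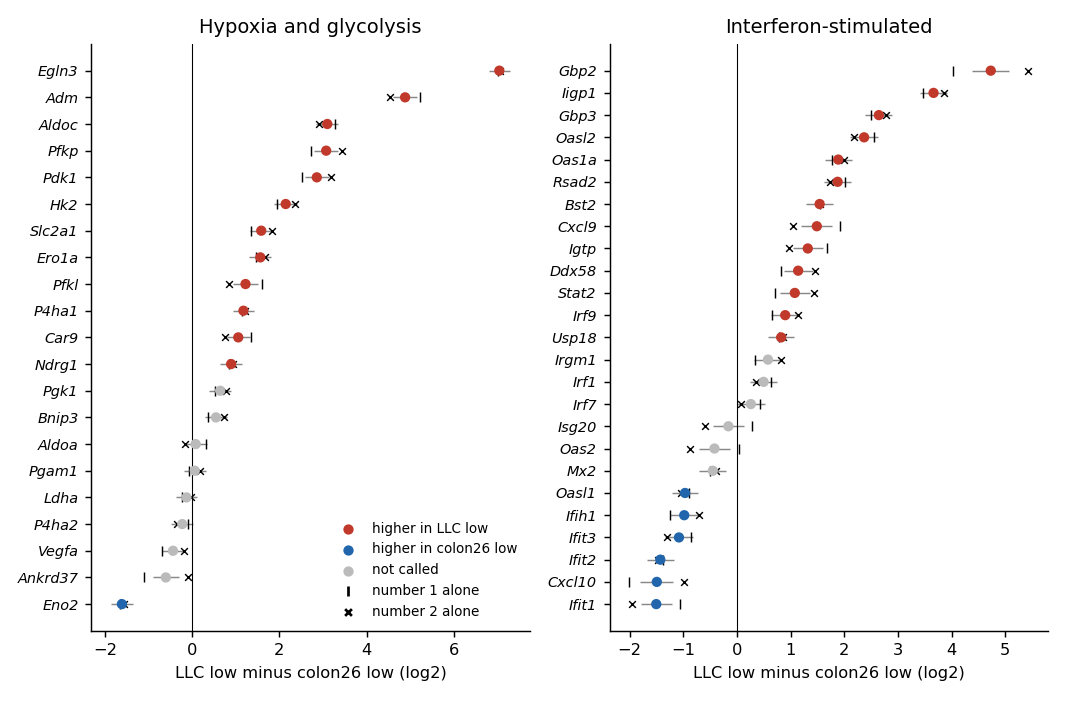
LLC low minus colon26 low on the log2 scale (horizontal axis) for the hypoxia and glycolysis genes (left, 21) and the interferon-stimulated genes (right, 25) that passed the filter, with 1 SE as bars, the value of number 1 alone as a tick and of number 2 alone as a cross; red is higher in LLC low, blue higher in colon26 low and grey not called. Egln3 (7.05) and Gbp2 (4.73) lead, and 6 interferon-stimulated genes lie on the colon26 side.

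Antigen presentation genes were called in both directions. Over all genes tested 15.5% were higher in LLC low and 16.9% in colon26 low. Of 12 class I genes that passed the filter 3 were higher in LLC low and 0 in colon26 low, with a median of 0.22. They were Tapbp (1.64), which holds class I molecules at the peptide transporter, the transporter gene Tap2 (1.02) and the transactivator gene Nlrc5 (0.87), none of them called without the block. Of 6 class II genes that passed, 1 was higher in LLC low and 2 in colon26 low. H2-Aa, a class II alpha chain, passed through LLC low alone. It was 6.95 and 6.44 in LLC low and 4.50 and 4.25 in colon26 low, a difference of 2.32 (SE 0.25, limma adjusted p = 0.000296). The invariant chain gene Cd74, which accompanies class II chains, was 5.95 and 6.47 against 6.17 and 5.53 and did not pass (limma adjusted p = 0.419). The endosomal protease gene Ctss (−1.23) and H2-DMb2 (−1.35) were higher in colon26 low. These are polymorphic genes, and the match of the probes to each strain was not tested.

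Cytokines and growth factors were called toward colon26 low more often than toward LLC low. Of 19 that passed the filter 11 were higher in colon26 low and 4 in LLC low, with a median of −1.04. The shares over all genes tested were 16.9% and 15.5%. Lif, a cytokine of the interleukin 6 family, was 5.52 and 5.26 in LLC low and 11.10 and 10.71 in colon26 low, a difference of −5.51 (SE 0.25, limma adjusted p = 4.06e-06). Its relatives Il6 and Il11 differed by −4.61 and −4.95. All colon26 values were above all LLC values for these 3 cytokines, which share a receptor chain. Fgf7 was 3.67 and 3.53 against 11.46 and 10.29, and Pdgfc (−4.47) and the hepatocyte growth factor gene Hgf (−3.04) were also higher in colon26 low. In LLC low the lymphatic growth factor genes Vegfc and Vegfd (2.82 and 1.93), the stem cell factor gene Kitl (2.62) and the macrophage growth factor gene Csf1 (1.71) were higher. Csf1 was 9.57 and 9.78 in LLC low and 8.46 and 7.47 in colon26 low, the reverse order of its receptor gene Csf1r. Without the block 6 of the 11 and 1 of the 4, Vegfc, were called. Csf1 and Csf1r were not (limma adjusted p = 0.12 and 0.195).

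Chemokines also went both ways. Of 25 ligands that passed the filter 11 were higher in colon26 low and 6 in LLC low. The shares over all genes tested were 16.9% and 15.5%. Ccl17, Ccl20, Ccl28, Cxcl5 and Cxcl14 passed through colon26 low alone and Cxcl9 through LLC low alone. Of the 19 ligands above 5 in both lines 7 were higher in colon26 low and 5 in LLC low. The neutrophil attractant Cxcl5 was 3.48 and 4.03 in LLC low and 8.75 and 7.17 in colon26 low, a difference of −4.20 (SE 0.45, limma adjusted p = 0.000259), and the T cell attractant Ccl5 differed by −2.97. The monocyte attractants Ccl2 and Ccl7 were higher in LLC low by 1.15 and 1.56, and the neutrophil attractants Cxcl1 and Cxcl2 by 1.04 and 1.93. Ccl2 was 10.85 and 13.005 against 10.23 and 11.32, values that overlapped between the lines, and its call was lost without the block (limma adjusted p = 0.50). Without the block 3 ligands were called toward colon26 and 0 toward LLC in limma. Of 9 receptors 1 was higher in LLC low, Ackr4 (1.01), which was not called without the block (limma adjusted p = 0.421). Another 4 were higher in colon26 low. They were led by Ccr1 (−4.41), a receptor of myeloid cells, at 4.66 and 4.64 against 9.17 and 8.96, and the atypical receptor gene Ackr2 (−2.39). Ccr1 and Cxcr4 passed the filter through colon26 low alone. Of the 7 receptors above 5 in both lines 2 were higher in colon26 low and 1 in LLC low.

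Of 12 complement genes that passed the filter 3 were higher in LLC low, 4 in colon26 low and 5 were not called. The shares over all genes tested were 15.5% toward LLC and 16.9% toward colon26. Those higher in LLC low were proteases of the classical pathway. C1s1 was 9.09 and 9.65 in LLC low and 5.36 and 4.21 in colon26 low, a difference of 4.59 (SE 0.39, limma adjusted p = 7.13e-05). C1ra differed by 3.39 and C2 by 1.97, and all 3 were also called without the block. Of the C1q chains, made by macrophages, C1qa and C1qc were higher in colon26 low, calls lost without the block (limma adjusted p = 0.382 and 0.121), and C1qb was not called. Masp1, a protease of the lectin pathway, was 5.37 and 5.28 against 10.64 and 10.91, a difference of −5.45 (SE 0.26, limma adjusted p = 4.16e-06), and the C1 inhibitor gene Serping1 differed by −1.60. Without the block Masp1 was called and Serping1 was not (limma adjusted p = 0.155).

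Few cell cycle genes were called between the low fractions. Of 29 replication and S phase genes that passed the filter 2 were higher in LLC low and 4 in colon26 low, with a median of 0.02. The replication factor gene Cdc45 was 5.74 and 6.37 in LLC low and 6.89 and 7.61 in colon26 low (−1.19), and the ribonucleotide reductase gene Rrm2 was higher in LLC low by 1.04. Of 29 mitosis genes 5 were higher in LLC low and 1 in colon26 low, with a median of 0.42 (0.05 for number 1 and 0.66 for number 2), and with median centring 10 were higher in LLC low. The spindle gene Aspm was 9.87 and 8.39 against 8.68 and 6.23, a difference of 1.67. Both shares called were below those of all genes tested (15.5% and 16.9%) except for the 5 mitosis genes toward LLC. Without the block 0 of either list were called in limma.

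Some targets of p53, the damage-responsive tumour suppressor, were higher in colon26 low. Of 13 that passed the filter 6 were higher in colon26 low, 1 in LLC low and 6 were not called, beside 16.9% and 15.5% of all genes tested. The median was −0.71, and over the 15 on the array it was −0.47. The cell cycle inhibitor gene Cdkn1a was 9.21 and 9.13 in LLC low and 11.26 and 11.73 in colon26 low, a difference of −2.32 (SE 0.27, limma adjusted p = 0.000383). The death receptor gene Fas differed by −2.50 and Trp53inp1 by −2.73, and these 3 were also called without the block. Sesn1, a stress-induced inhibitor of growth signalling, was the member higher in LLC low (1.94). The antioxidant enzyme gene Nqo1 was 6.81 and 6.82 in LLC low and 3.83 and 3.79 in colon26 low, a difference of 3.0 (SE 0.25, limma adjusted p = 6.19e-05). Of 18 genes of glutathione and xenobiotic metabolism that passed the filter 5 were higher in LLC low, among them Gstt1 (2.20), the glutathione reductase gene Gsr (1.98) and the haem oxygenase gene Hmox1 (1.93). Another 3, led by Gsto1 (−2.28), were higher in colon26 low.

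Wnt and adhesion genes went both ways. Of 15 Wnt genes that passed the filter 4 were higher in LLC low and 6 in colon26 low. The shares over all genes tested were 15.5% and 16.9%, and in lists this small the counts are descriptions. Wnt10a, a Wnt ligand, was 5.31 and 5.46 in LLC low and 9.20 and 9.90 in colon26 low (−4.17), and the secreted protein gene Dkk3 was 4.14 and 4.37 against 9.12 and 10.08 (−5.34). The antagonist gene Frzb was higher in LLC low by 2.01. Dkk3 and Lef1 passed the filter through colon26 low alone, and Wnt2 and Frzb through LLC low alone. Of the 11 Wnt genes above 5 in both lines 2 were higher in LLC low and 4 in colon26 low. Of 17 integrin and laminin genes 4 were higher in LLC low and 5 in colon26 low. Of the 14 above 5 in both lines 3 were higher in LLC low and 3 in colon26 low. The leukocyte integrin gene Itgb2 was 7.96 and 7.88 in LLC low and 6.29 and 5.78 in colon26 low, a difference of 1.89 (SE 0.26, limma adjusted p = 0.00102), the opposite side from the macrophage genes. The epithelial integrin gene Itgb4 was higher in colon26 low (−2.74). Without the block 0 integrin and laminin genes were called in limma (adjusted p = 0.0517 for Itgb2 and 0.166 for Itgb4), and after quantile normalization 3 and 2 were called toward LLC and colon26. Of the Wnt genes 1 and 3 were called without the block, among them Wnt10a, Dkk3 and Frzb.

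Most line differences were also seen in the high cells. Of the 1809 genes higher in LLC low 1765 had a positive LLC minus colon26 difference in the high arrays as well, and of the 1973 higher in colon26 low 1939 had a negative one. The high arrays carry the same replicate numbers, and the deviations of the high and low arrays moved together, so this is a description. The difference between low and high was tested over 8 arrays with the line and number pair as a block. It used the same genes, which were filtered on the low arrays alone. Genes above 5 only in high cells were therefore not tested, and counts of genes that changed are descriptions. The line difference lay further toward LLC in low cells for 131 genes (1.12%) and further toward colon26 for 54 (0.463%). These calls were fragile. In limma without the block 0 and 0 were called, with 265 genes at an unadjusted p under 0.05, and after quantile normalization 2 and 2. Without the colon26 pair numbered 1 the counts were 0 and 0, without the colon26 pair numbered 2 they were 0 and 1, and without the LLC pair numbered 2 they were 46 and 51.

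With those limits, macrophage genes were the list with most calls further toward colon26 in low cells, 8 of 17, beside 0.463% of all genes tested. Cd163 and Aif1 passed the filter through colon26 low alone. Cd163 was 3.23 and 3.61 in LLC high and 4.07 and 4.01 in colon26 high, near the floor in both, so its line difference was −0.62 in high cells against −3.94 in low cells. The difference between them was −3.32 (SE 0.44, limma adjusted p = 0.00693). Lyz2 was 6.78 and 7.17 in LLC high and 6.49 and 5.89 in colon26 high, and its line difference went from 0.78 in high cells to −1.70 in low cells, a change of −2.48 (SE 0.27, limma adjusted p = 0.00223). Ms4a7 (−2.29), C1qc (−1.85), Fcgr3 (−1.69), Mrc1 (−1.54), Csf1r (−1.42) and Tyrobp (−1.4) were the other 6. The mean log2 level over the macrophage list was 5.15 and 5.25 in LLC high and 5.56 and 5.41 in colon26 high, below every low array. Fabp4 (−3.23), Lyz1 (−2.94), the joint lubricant gene Prg4 (−2.74) and the oxygen-sensing factor gene Epas1 (−2.42) also lay further toward colon26 in low cells.

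In the other direction lay 4 of 15 fibroblast genes, 6 of 18 small proteoglycan and matricellular genes and 5 of 25 matrix proteases and inhibitors, lists that share members. Further toward colon26 in low cells lay 2 of these fibroblast genes, 2 of these proteases and inhibitors and 0 of the small proteoglycan and matricellular genes. Aspn was 3.34 and 3.70 in LLC high and 3.74 and 3.54 in colon26 high, and its line difference went from −0.12 in high to 4.08 in low cells, a change of 4.20 (SE 0.45, limma adjusted p = 0.00223). Dcn was 9.12 and 9.43 in LLC high and 13.07 and 13.32 in colon26 high, so a line difference of −3.92 in high cells became −0.89 in low cells. For Col1a2, Tnc and Fn1 colon26 was the higher line in both fractions, by less in low cells. Col1a2 was 5.34 and 6.51 in LLC high and 13.17 and 13.19 in colon26 high, where colon26 low was 13.65 and 13.40, so this collagen gene was strong in both colon26 fractions. Its line difference changed by 3.06 (SE 0.56, limma adjusted p = 0.0271). Mmp12 (3.50), Osr2, an odd-skipped factor gene of mesenchyme (3.40), the cell death gene Bmf (3.16) and the aryl hydrocarbon receptor gene Ahr (2.86) also lay further toward LLC in low cells. Arg1 was 3.53 and 4.12 in LLC high and 3.88 and 3.98 in colon26 high, and its change was 2.03 (SE 0.27, limma adjusted p = 0.00693). Aspn and Arg1 passed the filter through LLC low alone.

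**Figure D5:**
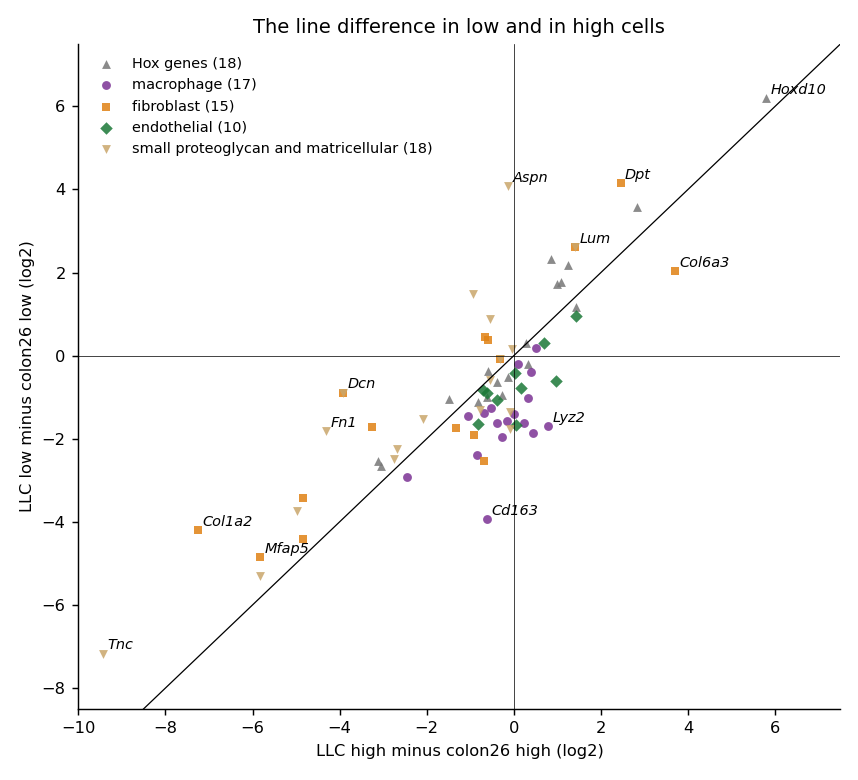
LLC minus colon26 on the log2 scale in high cells (horizontal axis) against low cells (vertical axis) for the members of 5 lists that passed the filter, with the line of equality in black. Hox genes lie along the line, most macrophage genes lie below it (Cd163 at −0.62 and −3.94), and Aspn, Dcn, Col1a2 and Tnc lie above it.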

How the data were processed

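Total RNA of sorted EGFP-low and EGFP-high tumour cells was extracted with Trizol and measured on Affymetrix mouse arrays with a single biotin label, per the labels' protocols. The deposited values of 45101 probe sets are on a log2 scale and were summarised by the authors with RMA, per the submitters' processing notes. The software and version of RMA were not stated in the labels, notes or headers used here, nor was it stated which arrays it normalized as 1 set. RMA compresses differences near the background, so a fold change with 1 line near the floor is probably too small in size, which was not tested.

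Probe sets were named by the platform's annotation (34945 with 1 gene symbol, 932 with several, 9160 with none, 64 controls), and 34741 of them matched a RefSeq gene of GRCm38.p6. For each gene the probe set strongest on average over all 8 arrays was used, and probe sets with several symbols or none were dropped. The comparison was run in limma 3.58.1 (R 4.3.3) on the log2 values of the 4 low arrays, variances moderated by empirical Bayes and p-values adjusted by Benjamini-Hochberg over 11661 genes, called at 0.05 (1 residual degree of freedom, prior 7.23). Adjusted p-values in the text are from this fit unless another is named. The replicate number of the labels entered as a block: across genes the deviations of LLC low and colon26 low arrays of the same number correlated at 0.754, with only 2 numbers, and the 3′ to 5′ signal separated the numbers in both lines. The low against high comparison used all 8 arrays with the line and number pair as a block (2 residual degrees of freedom). The number of arrays limits the precision. With 1 residual degree of freedom the share of false calls can exceed the nominal level, as it did in some draws when the fit was tested on simulated data.

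The genes named were the 12 with the largest positive and the 12 with the largest negative difference among genes called with separate arrays, the 6 of each sign with the largest change between low and high among genes passing both tests, Gins1, and up to 4 called members of each of 43 lists by smallest adjusted p. All members of the macrophage, fibroblast, endothelial, Hox, epithelial, sex chromosome and MHC lists could be named, and further members of other lists were named after their values were seen. The members and lists were chosen with earlier results of these data known. Lists are described by counts and medians, and no test over a list was run. Plots were made in Python 3.11.15 with matplotlib 3.10.9.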

Additional observations from a re-analysis of the deposited data

Results flagged for a closer look

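Among the genes taken by size of difference or change or as leading members of a list, with Gins1, 32 passed the limma test of low against high. It asked whether the LLC minus colon26 difference was unequal in low and in high cells. Other genes named in the report, among them C1qc, Csf1r and Tyrobp, also passed and are not among the 32. The values below are the difference in low minus that in high on the log2 scale. The calls rest on the pair block and on both colon26 pairs, as given in the report. Further toward colon26 in low cells lay the macrophage genes Cd163 (−3.32), Lyz2 (−2.48), Ms4a7 (−2.29), Fcgr3 (−1.69) and Mrc1 (−1.54), with Lyz1 (−2.94), the monocyte clotting factor gene F13a1 (−2.26) and the lysosomal protease genes Ctss (−1.89) and Ctsh (−1.81). So did Fabp4 (−3.23), Prg4 (−2.74), Epas1 (−2.42) and the capillary gene Emcn (−1.71). Col18a1 (−1.82) and the leukocyte integrin gene Itgb2 (−1.72) were higher in LLC in both fractions, by less in low cells, and the neutrophil collagenase gene Mmp8 changed by −1.21.

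Further toward LLC in low cells lay the matrix genes Aspn (4.20), Col1a2 (3.06), Fn1 (2.49), Tnc (2.26), Col1a1 (1.42) and Thbs2 (1.22) and the protease genes Mmp12 (3.50) and Mmp2 (1.28). The complement proteases C1s1 (2.44), C1ra (1.72) and C2 (1.4) moved the same way, as did Arg1 (2.03) and Igf2r (1.25). The transcription factor genes Osr2 (3.40) and Ahr (2.86) and the cell death gene Bmf (3.16) completed the genes of this selection that passed.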

How the results depend on the processing

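Counts are given as higher in LLC low and higher in colon26 low, beside 1809 and 1973. Without the replicate block limma called 279 and 379, and in the fit of all 8 arrays without the block 705 and 955. A filter of 7 in place of 5 gave 1334 and 1086, and left no member of the T and NK cell, B and plasma cell, mast cell, erythroid and skeletal muscle lists, so these have no median under it. The fit of all 8 arrays with the block called 2526 and 2863. Leaving out 1 low array at a time in that fit gave 1400 to 3064 and 1691 to 2766, lowest without the LLC low array numbered 2 (1400 and 1691) and highest toward LLC without the colon26 low array numbered 1. Counts under the other filters, scalings, moderation and probe set choices stayed within 1.5 times these. Of the 159 genes taken by size of difference or change or from a list, with Gins1, 78 lost their call without the block. At most 12 lost it when 1 array was left out, 11 with the mean of all probe sets and 8 with quantile normalization. The sign turned for 1 of them, Acta2, at −0.12 with the mean of all probe sets (limma adjusted p = 0.711), and the cause was not tested. The change of the line difference between low and high was called toward LLC and toward colon26 for 131 and 54 genes. It was called for 34 and 22 without a filter, 238 and 58 with a filter of 7, 2 and 2 after quantile normalization, 329 and 102 with median centring, 268 and 76 with trend and robust moderation, and 0 and 0 without the block. Leaving out 1 pair at a time gave 0 to 144 and 0 to 55. The cause of these changes was not tested. With 2 arrays a group, genes near the array floor and differences of the size of the median SE of 0.26 could not be resolved.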

Other observations

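Lists that the report did not describe also held called genes, several of them from few genes tested. Over all genes tested 15.5% were higher in LLC low and 16.9% in colon26 low. Of 20 cathepsin and lysosome genes that passed the filter 2 were higher in LLC low and 5 in colon26 low, with a median of −0.31. Ctso, a cysteine protease gene, was 8.77 and 8.85 in LLC low and 7.76 and 6.09 in colon26 low (difference 1.88), and Ctsh was 5.28 and 5.21 against 7.51 and 6.28 (−1.65). Among 4 dendritic cell genes that passed, the integrin gene Itgax was 4.80 and 4.24 in LLC low and 6.09 and 6.91 in colon26 low (−1.98). Among 4 keratinocyte genes that passed, Krt10, a keratin of differentiating epidermis, was 4.39 and 4.47 against 8.03 and 7.66 (−3.42), and Sbsn, suprabasin, was 7.27 and 7.49 against 6.21 and 6.00 (1.28), while the defining genes Krt14 and Trp63 lay under the filter. The oncofetal RNA-binding protein genes Igf2bp1 and Igf2bp3 were called on opposite sides, at −1.28 and 0.99. All calls are from limma with the replicate block. Without the block Krt10 was still called (limma adjusted p = 0.0102), and Ctso, Ctsh, Itgax, Sbsn, Igf2bp1 and Igf2bp3 were not (0.0829 to 0.224).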
